A study of Homo sapiens and Mus musculus with 8 samples.

Results

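The genes described here are 32 human genes of the endoplasmic reticulum (ER) that fold secreted and membrane proteins, sense misfolded ones and send them for degradation. They were chosen by name as ER stress sensors, chaperones, disulfide isomerases and degradation factors, and each symbol was matched to 1 Ensembl gene of the deposited table, so they are 32 of the 60483 genes counted. By role they comprise 9 chaperones and co-chaperones, 7 disulfide isomerases and oxidases, 5 stress sensors and their transcription factors, 2 secreted ER stress proteins and 9 degradation factors. Of these, 31 had enough counts to be tested, and XBP1 did not.

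A cell that makes more secretory protein than its ER can fold activates the unfolded protein response. Its sensors sit in the ER membrane. IRE1, encoded by ERN1 and in mucosal epithelium also by ERN2, splices the XBP1 message. ATF6 is cleaved and enters the nucleus, and PERK, encoded by EIF2AK3, slows translation and favours that of ATF4. XBP1 and ATF6 raise the transcription of chaperones, isomerases and degradation factors, in part through the ER stress element (ERSE) of their promoters. In the intestine the response is best known from goblet cells, which secrete mucins.

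RNA was sequenced from LS174T and KM12, both human colorectal cancer cell lines, as cell line-derived xenografts (tumors grown in mice from the human cells) and as cells in culture. LS174T, labelled GNAS R201H throughout, was taken as Dox (+) and Dox (-). KM12 was taken as a GNAS knockout (GNAS KO) and as parental cells, which are labelled GNAS R201H. GNAS codes for Gs alpha, which stimulates adenylyl cyclase, and the series asks how far tumors with a GNAS mutation depend on it. The 8 groups are therefore the LS174T Dox (+) and Dox (-) xenografts, the LS174T Dox (+) and Dox (-) cultures, the KM12 GNAS KO and parental xenografts, and the KM12 GNAS KO and parental cultures. Each group is 1 library. What Dox induces, whether the knockout is 1 clone and how many mice were used are not given in the labels, and no LS174T library without the GNAS R201H label was included. Because no group has a second library, p-values do not measure the spread between replicates of a group. For xenograft against culture they measure how far pairs that share line and GNAS state differ from each other. For GNAS state the pairs share line and environment. LS174T against KM12 uses no pairs, and libraries of a line that differ in GNAS state stand as its replicates. How much of any such spread is technical cannot be told.

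Total counts lay between 15924846 and 37735085 a library. The 32 genes took between 0.705% and 1.22% of each library's counts, with 0.705% and 0.725% in the LS174T xenografts, 1.18% and 1.22% in the LS174T cultures and 0.866% to 1.02% in the KM12 libraries. All 10 colorectal epithelial markers had counts in every library. Their summed level was 5450 and 7237 TMM-scaled CPM (counts scaled to a common library size) in the LS174T xenografts, against 20626 and 25645 CPM in the LS174T cultures, and 6983 to 8979 CPM in the KM12 libraries. The fall of this sum in LS174T was not shared by all 10 markers. In the Dox (+) pair 7 were lower and 3 higher in the xenograft, with a median log2 ratio of -0.35. In the Dox (-) pair 6 were lower and 4 higher, with a median of -0.41. Fibroblast markers, 6 in all, summed to 263 CPM in the KM12 parental xenograft and to between 3.48 and 12.7 CPM in the other libraries. Of 6 markers of plasma cells, whose ER is large, IGHG1 and IGKC were at 0 in all 8 libraries and JCHAIN in 6. The 6 together summed to between 134 and 290 CPM, and SDC1 alone among them had enough counts to be tested. Mitochondrial transcripts took 5.23% to 8.66% of counts in xenografts and 7.22% to 11.8% in cultures. In bulk RNA, fewer cells of a type and less RNA per cell cannot be told apart.

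Promoter sequences are shown for 6 of the genes whose levels carry the main comparisons below. All 6 hold an ERSE or ERSE-II match, whereas ATF6, PDIA4 and MANF, also compared below, have windows without either. HSPA5 fell in the xenografts of both lines, HYOU1 gave the largest fall over both lines, CALR fell most in LS174T, and CRELD2, SDF2L1 and ERO1B moved in opposite directions in the 2 lines. Each is the 250 bases before the RefSeq start of the gene on GRCh38.p14, read 5′ to 3′ on the gene's strand, with ERSE or ERSE-II matches in capitals. HSPA5 (ENSG00000044574.7) is at chr9:125241344-125241593 on the minus strand, CALR (ENSG00000179218.12) at chr19:12938359-12938608 on the plus strand, and HYOU1 (ENSG00000149428.17) at chr11:119057206-119057455 on the minus strand. CRELD2 (ENSG00000184164.13) is at chr22:49918384-49918633 and SDF2L1 (ENSG00000128228.4) at chr22:21642052-21642301, both on the plus strand, and ERO1B (ENSG00000086619.12) at chr1:236281959-236282208 on the minus strand.
HSPA5: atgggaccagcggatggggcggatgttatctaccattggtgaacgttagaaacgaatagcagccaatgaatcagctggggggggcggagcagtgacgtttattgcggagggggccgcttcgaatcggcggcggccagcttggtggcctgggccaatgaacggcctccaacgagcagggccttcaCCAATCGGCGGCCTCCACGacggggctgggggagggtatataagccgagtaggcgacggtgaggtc
CALR: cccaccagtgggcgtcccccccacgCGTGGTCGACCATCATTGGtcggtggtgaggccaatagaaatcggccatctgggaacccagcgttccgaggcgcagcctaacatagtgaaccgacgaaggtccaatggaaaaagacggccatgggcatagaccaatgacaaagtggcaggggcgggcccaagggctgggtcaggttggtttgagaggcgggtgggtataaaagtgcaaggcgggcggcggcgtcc
HYOU1: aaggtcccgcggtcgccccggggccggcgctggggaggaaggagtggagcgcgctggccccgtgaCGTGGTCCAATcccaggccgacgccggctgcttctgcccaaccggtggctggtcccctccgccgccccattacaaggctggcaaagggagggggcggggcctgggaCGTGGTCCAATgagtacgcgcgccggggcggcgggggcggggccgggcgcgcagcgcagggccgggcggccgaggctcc
CRELD2: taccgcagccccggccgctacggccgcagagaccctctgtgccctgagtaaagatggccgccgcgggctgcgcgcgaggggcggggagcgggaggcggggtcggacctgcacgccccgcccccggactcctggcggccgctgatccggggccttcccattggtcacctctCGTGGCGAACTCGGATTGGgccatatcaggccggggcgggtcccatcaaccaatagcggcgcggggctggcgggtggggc
SDF2L1: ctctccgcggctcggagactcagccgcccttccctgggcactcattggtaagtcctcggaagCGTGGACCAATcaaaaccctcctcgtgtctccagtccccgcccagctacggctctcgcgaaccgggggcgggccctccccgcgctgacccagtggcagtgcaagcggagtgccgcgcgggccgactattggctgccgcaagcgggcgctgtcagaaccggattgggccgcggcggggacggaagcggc
ERO1B: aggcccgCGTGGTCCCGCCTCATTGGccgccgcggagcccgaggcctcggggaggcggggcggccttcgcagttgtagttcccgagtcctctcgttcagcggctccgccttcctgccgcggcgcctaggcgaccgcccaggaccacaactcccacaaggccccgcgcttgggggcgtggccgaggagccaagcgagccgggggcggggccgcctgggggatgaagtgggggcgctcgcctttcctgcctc

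ERSE was searched as CCAAT, 9 bases of any kind and CCACG, and ERSE-II as ATTGG, any base and CCACG, on both strands of 300-base RefSeq windows that run from 250 bases before to 50 bases after the start. Of the 28 genes with such a window, 8 held an ERSE (CALR, CANX, CRELD2, ERO1B, HSP90B1, HSPA5, PDIA6 and XBP1), against 0.0769% of all 35116 windows. A further 3 held an ERSE-II (HERPUD1, HYOU1 and SDF2L1), against 0.0541% of all windows. The HSPA5 match lay at -66 to -48 from the start in the forward orientation, and the CALR match at -225 to -207 in the reverse one. HYOU1 held 2 ERSE-II matches, at -185 to -175 and -79 to -69, both reversed. The first of these overlaps its match to the XBP1 element TGACGTGG, which TXNDC5 also holds and which occurs in 0.729% of windows. The cAMP response element TGACGTCA, bound by the CREB factors that act after Gs signalling, occurs in 1.85% of windows and in 0 of the 28 genes. The ATF4 element TGATGNAA occurs in 3.62% of windows and in 1 of the 28, HERPUD1. A gene was counted if any of its windows held a match, and some genes, such as CANX, have several windows. Counts of genes and shares of windows are therefore not the same measure. A match describes the letters in the window only.

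The abundance of the genes was ordered by FPKM, which is CPM per kilobase of exon, averaged over the 8 libraries. CALR, a lectin chaperone of the ER lumen, was highest at 537 FPKM, followed by HSP90B1 (the ER HSP90) at 301 FPKM and HSPA5 (BiP, the ER HSP70) at 289 FPKM. The isomerases P4HB, PDIA3 and PDIA4 averaged 204, 177 and 175 FPKM, and the membrane lectin chaperone CANX 154 FPKM. HSPA5 ranged from 181 to 408 FPKM over the libraries and HSP90B1 from 164 to 435 FPKM, so the order of these neighbours was not fixed. The sensors were far lower per length. ERN2 averaged 13.3 FPKM, ATF6 8.64 FPKM, EIF2AK3 5.40 FPKM and ERN1 3.30 FPKM. ERN2 was above ERN1 in all 8 libraries. EIF2AK3 varied least, with 1.31-fold between its lowest and highest library, and DERL3, a derlin of the degradation channel, varied most, with 26.0-fold.

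XBP1 (ENSG00000100219.15, chr22:28794555-28800597) is listed at 0 counts in all 8 libraries. In the same table the lowest library had 90575 counts for GAPDH and 50812 for ACTB, and CCDC117, which lies beside XBP1, had 74 to 425 counts. Because 8 of 8 libraries are at exactly 0, no level, fold or floor is given for XBP1, and whether the 0 reflects the cells or the counting was not tested.

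**Figure D1:**
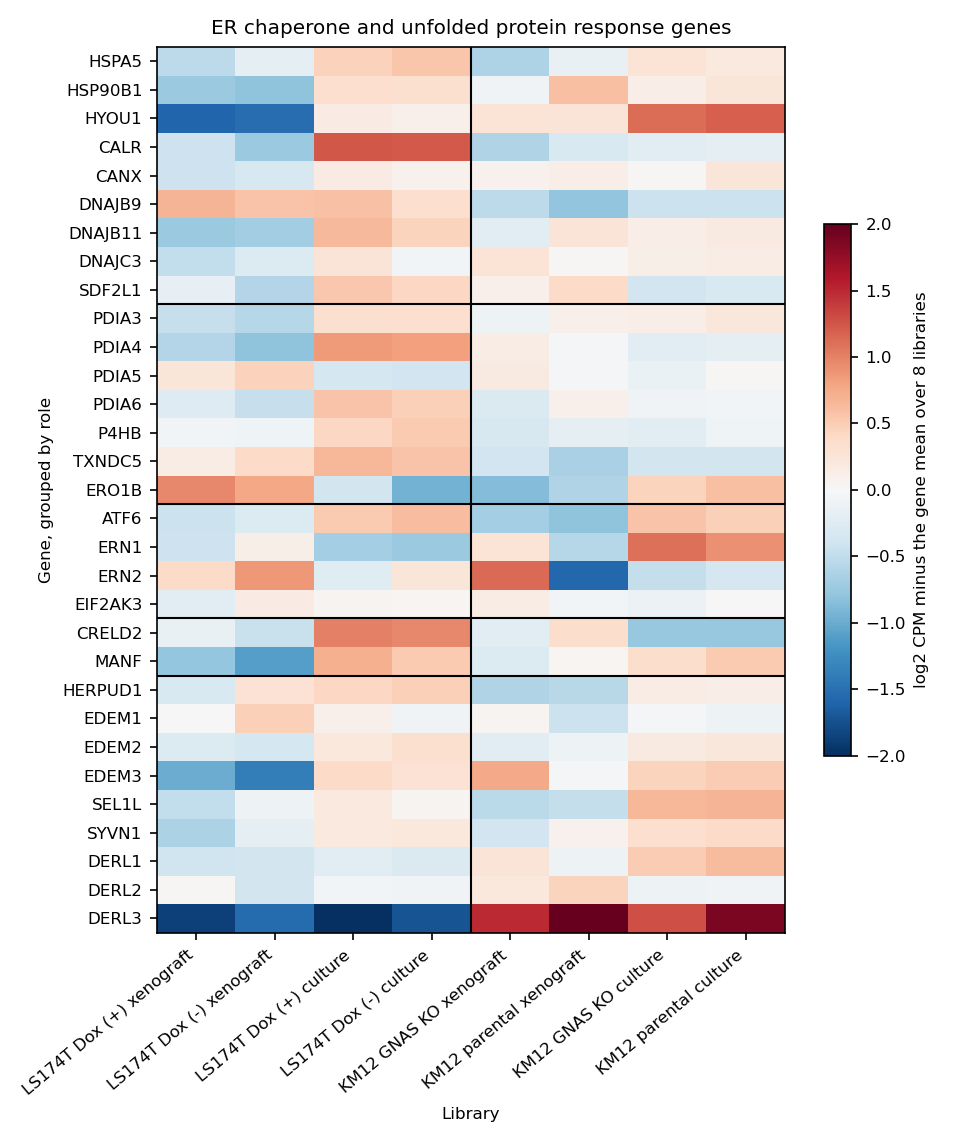
Level of the 31 tested ER genes in each library, as log2 CPM minus the gene's mean over the 8 libraries (colour, red above and blue below the mean, clipped at 2). Rows are grouped by role and columns run through the LS174T xenografts and cultures and then the KM12 xenografts and cultures; the LS174T xenografts are blue in most chaperone and isomerase rows.

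Xenograft against culture was tested over the 4 pairs of line and GNAS state. In xenografts 8 of the 31 genes fell and 0 rose, against 13.5% of all 16070 tested genes that fell and 12.6% that rose (26.1% in either direction). The 8 were the chaperones HYOU1 and HSPA5, the sensor ATF6, the secreted MANF, and HERPUD1, SEL1L, SYVN1 and EDEM2, which act in degradation. The median log2 difference of the 31 genes was -0.32, against 0.02 for all genes. No gene's xenograft libraries all lay above all its culture libraries (12.6% of all genes), while 8 genes had all 4 xenografts below all 4 cultures (13.8% of all genes).

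ATF6 had 47.3 and 52.3 CPM in the LS174T Dox (+) and Dox (-) xenografts and 39.5 and 36.4 CPM in the KM12 GNAS KO and parental xenografts. In the cultures it had 90.8 and 97.3 CPM in LS174T Dox (+) and Dox (-) and 93.8 and 87.7 CPM in KM12 GNAS KO and parental. Every xenograft was below every culture, and ATF6 fell by 1.09 on the log2 scale (SE 0.13, adjusted p = 0.0098, edgeR quasi-likelihood test with Benjamini-Hochberg adjustment). HYOU1, an HSP70-like protein that exchanges nucleotide on BiP, had 104 and 109 CPM in the LS174T xenografts and 377 and 376 CPM in the KM12 xenografts. Its cultures had 352 and 338 CPM in LS174T and 680 and 715 CPM in KM12. The xenografts were below the matching cultures in 4 of 4 pairs, but KM12 xenografts lay above LS174T cultures. HYOU1 fell by 1.29 (SE 0.21, adjusted p = 0.015, edgeR).

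HSPA5, which binds unfolded chains and holds the sensors inactive, had 753 and 952 CPM in the LS174T Dox (+) and Dox (-) xenografts and 707 and 976 CPM in the KM12 GNAS KO and parental xenografts. Its cultures had 1489 and 1596 CPM in LS174T and 1318 and 1241 CPM in KM12. All xenografts were below all cultures, and the log2 difference was -0.74 (SE 0.17, adjusted p = 0.0305, edgeR). MANF, which leaves the ER when calcium is lost, had 71.1 and 56.5 CPM in the LS174T xenografts and 101 and 125 CPM in the KM12 xenografts. Cultures held 199 and 175 CPM of MANF in LS174T and 155 and 174 CPM in KM12. Its groups did not overlap either, with a log2 difference of -1.05 (SE 0.24, adjusted p = 0.0294, edgeR).

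The other genes that fell belong to degradation from the ER. SEL1L, the adaptor of the ubiquitin ligase SYVN1, differed by -0.80 (SE 0.21) and SYVN1 itself by -0.57 (SE 0.14). HERPUD1, which gathers the ligase complex, differed by -0.59 (SE 0.15), and EDEM2, a mannosidase that marks misfolded glycoproteins, by -0.47 (SE 0.13). Their adjusted p values lay between 0.0355 and 0.0421 (edgeR). The other 23 genes did not pass, and their log2 differences ran from -1.02 for CALR to 0.44 for ERN2.

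The count depends on each pair and on the scaling. It was 4 without the KM12 parental pair (HSPA5, HYOU1, ATF6 and MANF), 3 without the KM12 GNAS KO pair, 1 without the LS174T Dox (-) pair (ATF6) and 0 without the LS174T Dox (+) pair, in fits with fewer libraries. In the same order, 1338, 1011, 302 and 7 of all genes passed as lower, against 2166 with every pair, so calls were lost over all genes as well. With libraries scaled by their totals alone the median of all genes moves to 0.28 and 2 genes passed as lower, HYOU1 and ATF6, and 1 as higher, PDIA5.

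The response to the xenograft was then fitted in each line separately. In LS174T, 17 of the 31 genes fell and 2 rose, against 22.5% and 23.4% of all genes (45.9% in either direction). In KM12, 8 fell and 2 rose, against 15.5% and 14.3% of all genes (29.8% in either direction). The median log2 difference of the genes was -0.54 in LS174T (0.03 for all genes) and -0.14 in KM12 (-0.00 for all genes). With library totals alone the KM12 median turns to 0.14, where that of all genes is 0.26, and the LS174T median is -0.30, where that of all genes is 0.27. Genes that fell in both lines numbered 4 (HSPA5, HYOU1, ATF6 and MANF), and 9 passed in neither. Both xenografts lay below both cultures for 22 of the 31 genes in LS174T and above them for 4, against 37.6% and 39.6% of all genes. In KM12 these counts were 15 and 4, against 35.7% and 33.3% of all genes.

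Within KM12 the falls of HSPA5 and MANF lean on the GNAS KO pair. Without it HSPA5 gave -0.34 (adjusted p = 0.339) and MANF -0.48 (adjusted p = 0.121), against -0.62 (SE 0.17) and -0.55 (SE 0.14) with it (edgeR). Neither passed without the LS174T Dox (+) pair or the LS174T Dox (-) pair, which supply part of the spread (adjusted p between 0.0597 and 0.0776). HYOU1, ATF6, ERO1B, ERN1, SEL1L and HERPUD1 passed as lower in KM12 in both fits that leave out an LS174T pair. The fits that leave out a KM12 pair leave KM12 as 1 library against 1, with the spread from LS174T alone. The same holds for LS174T, with the spread from KM12, when an LS174T pair is left out. A pass of such a line, here or below, is not read as a result. With library totals alone, HSPA5, MANF and HERPUD1 did not pass in KM12, and PDIA4 and DERL2 passed as higher.

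Single pairs show the same counts by size. Past 1.5-fold, 17 genes were lower and 3 higher in the LS174T Dox (+) xenograft than in its culture, where 23.5% and 30.3% of all genes were. In the LS174T Dox (-) pair 15 were lower and 4 higher, where 26.4% and 31.0% of all genes were. The KM12 GNAS KO pair gave 9 lower and 1 higher, where 22.2% and 24.9% of all genes were, and the KM12 parental pair 8 lower and 3 higher, where 21.0% and 26.5% of all genes were.

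By role, 7 of 9 chaperones fell in LS174T xenografts and 0 rose, while in KM12 2 fell and 1 rose. Of the 7 disulfide isomerases and oxidases, 4 fell and 2 rose in LS174T, and 1 fell and 0 rose in KM12. Both secreted proteins fell in LS174T, whereas in KM12 1 fell and 1 rose. Among the 4 tested sensors 1 fell in LS174T and 2 in KM12. Degradation factors gave 3 lower of 9 in LS174T and 2 lower of 9 in KM12, and 0 higher in either line. Over all genes 22.5% fell and 23.4% rose in LS174T, and 15.5% fell and 14.3% rose in KM12, so the counts of degradation factors that fell lie near those shares, and groups this small are described only.

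**Figure D2:**
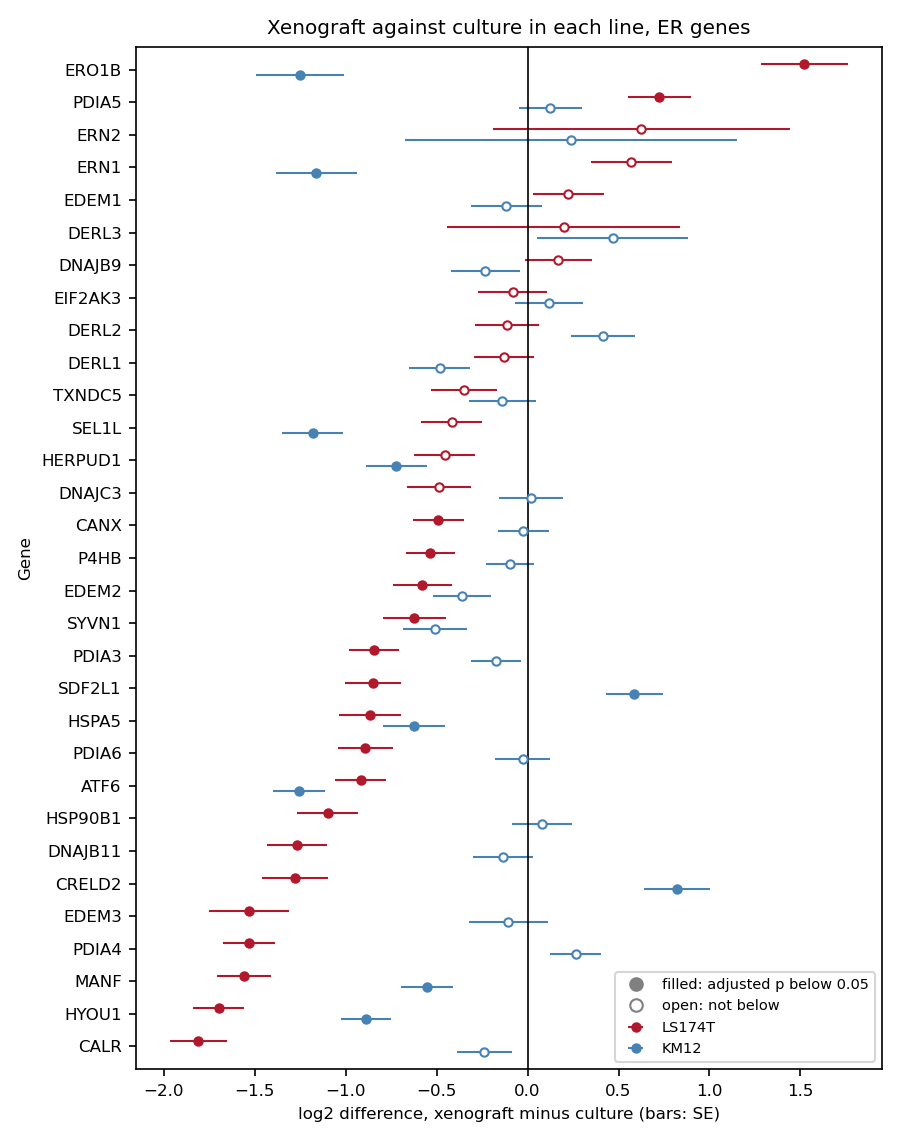
Log2 difference of each tested ER gene, xenograft minus culture, in LS174T (red) and KM12 (blue), with bars of 1 SE and filled points where the adjusted p was below 0.05. CALR lies at -1.81 in LS174T and -0.24 in KM12, and ERO1B at 1.52 in LS174T and -1.25 in KM12.

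CALR gave the largest fall in LS174T. It had 945 and 755 CPM in the LS174T Dox (+) and Dox (-) xenografts, against 2975 and 2947 CPM in the matching cultures. In KM12 GNAS KO and parental it had 831 and 1024 CPM in xenografts, against 1078 and 1097 CPM in cultures. The LS174T cultures thus stood above all other libraries, and the xenografts of the 2 lines overlapped. The log2 difference was -1.81 (SE 0.16, adjusted p = 1.84e-04) in LS174T and -0.24 (SE 0.15, adjusted p = 0.261) in KM12 (edgeR). The difference between the lines, LS174T minus KM12, was -1.57 (SE 0.21, adjusted p = 0.0038).

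PDIA4, a disulfide isomerase found in complexes with BiP, also fell in LS174T. It had 354 and 304 CPM in the LS174T xenografts, against 957 and 938 CPM in the LS174T cultures. The KM12 xenografts had 584 and 522 CPM, against 458 and 462 CPM in the KM12 cultures. LS174T xenografts were the lowest of the 8 libraries and LS174T cultures the highest. PDIA4 fell by 1.53 in LS174T (SE 0.14, adjusted p = 2.55e-04, edgeR) and was at 0.26 in KM12 (SE 0.14, adjusted p = 0.188). The lines differed by -1.79 (SE 0.20, adjusted p = 0.00182).

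HSP90B1 had 807 and 769 CPM in the LS174T xenografts, against 1701 and 1673 CPM in the LS174T cultures, and fell by 1.10 (SE 0.17, adjusted p = 0.0015, edgeR). In KM12 the xenografts had 1276 (GNAS KO) and 2041 CPM (parental), on either side of the cultures at 1469 and 1585 CPM, and the log2 difference was 0.08 (SE 0.17, adjusted p = 0.743). DNAJB11, a co-chaperone that brings clients to BiP, had 64.2 and 65.9 CPM in the LS174T xenografts, against 168 and 146 CPM in the cultures. It fell by 1.27 in LS174T (SE 0.17) and gave -0.14 (SE 0.16) in KM12, a value that did not pass. EDEM3, a further mannosidase of degradation, had 32 and 24.6 CPM in the LS174T xenografts, against 83.7 and 78.6 CPM in the cultures, and fell by 1.53 (SE 0.22). Its KM12 xenografts, at 109 (GNAS KO) and 63.0 CPM (parental), lay on either side of the KM12 cultures at 87.0 and 91.3 CPM. The difference between the lines passed for HSP90B1 at -1.18, for DNAJB11 at -1.13 and for EDEM3 at -1.42 (adjusted p between 0.016 and 0.0236, edgeR).

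CRELD2 and SDF2L1 moved in opposite directions in the 2 lines. CRELD2, a secreted ER stress protein, had 56.8 and 46.5 CPM in the LS174T Dox (+) and Dox (-) xenografts, against 127 and 123 CPM in the matching cultures. In KM12 it had 54.1 CPM in the GNAS KO and 80.3 CPM in the parental xenograft, against 37.2 and 37.4 CPM in the matching cultures. Each line's xenografts lay apart from its cultures, below them in LS174T and above them in KM12. CRELD2 fell by 1.28 in LS174T (SE 0.18, adjusted p = 0.0011) and rose by 0.82 in KM12 (SE 0.18, adjusted p = 0.0125), and the lines differed by -2.10 (SE 0.25, adjusted p = 0.00247, edgeR).

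SDF2L1, which joins the co-chaperone DNAJB11, had 43.2 and 32.3 CPM in the LS174T xenografts, against 70.3 and 64.5 CPM in the cultures. It had 52.2 and 62.9 CPM in the KM12 GNAS KO and parental xenografts, against 37.0 and 39.3 CPM in the cultures. Again the xenografts lay below the cultures in LS174T and above them in KM12. SDF2L1 fell by 0.85 in LS174T (SE 0.16, adjusted p = 0.00341), rose by 0.59 in KM12 (SE 0.16, adjusted p = 0.0249) and differed by -1.44 between the lines (SE 0.22, adjusted p = 0.00596, edgeR).

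Both rises in KM12 lean on the parental pair, whose xenograft also held 263 CPM of fibroblast markers. Without that pair the KM12 value was 0.55 for CRELD2 (adjusted p = 0.0902) and 0.51 for SDF2L1 (adjusted p = 0.12, edgeR), so neither passed, and the part of the fibroblast markers in them was not tested. That fit leaves KM12 as 1 library against 1, with the spread from LS174T alone, so a pass in it is not read as a result. SDF2L1 also missed with the LS174T Dox (-) or Dox (+) pair left out (adjusted p = 0.0541 and 0.0581). The differences between the lines for CRELD2 and SDF2L1 were -1.82 and -1.35 without the KM12 parental pair.

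ERO1B and ERN1 gave the reverse pattern. ERO1B, the oxidase that renews oxidized isomerases, had 20.2 and 17.8 CPM in the LS174T Dox (+) and Dox (-) xenografts, against 8.07 and 5.39 CPM in the cultures. KM12 GNAS KO and parental had 5.67 and 6.86 CPM in xenografts, against 14.1 and 15.7 CPM in cultures. The xenografts lay above the cultures in LS174T and below them in KM12, on 117 to 481 counts a library. ERO1B rose by 1.52 in LS174T (SE 0.24, adjusted p = 0.00178), fell by 1.25 in KM12 (SE 0.24, adjusted p = 0.00808) and differed by 2.77 between the lines (SE 0.34, adjusted p = 0.00272, edgeR), the widest gap of the 31 genes.

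ERN1, the broadly expressed IRE1, had 24.0 and 34.8 CPM in the LS174T xenografts, against 19.9 and 19.1 CPM in the cultures, a log2 difference of 0.57 that did not pass (SE 0.22, adjusted p = 0.0681, edgeR). In KM12 GNAS KO and parental xenografts it had 38.6 and 21.5 CPM, against 68.9 and 60.4 CPM in cultures, and fell by 1.16 (SE 0.22, adjusted p = 0.00837). The KM12 cultures were the highest libraries. The lines differed by 1.73 (SE 0.32, adjusted p = 0.0122).

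The test of the difference between the lines found 10 genes more negative in LS174T and 2 more positive, against 5.94% and 7.74% of all genes (13.7% in either direction). Besides those above, MANF differed by -1.01, PDIA6 by -0.87 and HYOU1 by -0.81. The calls of this test did not hold without the LS174T Dox (-) pair or without the LS174T Dox (+) pair. In those fits LS174T is 1 library against 1, the spread comes from KM12 alone, and almost nothing was called over all genes. They leave 1 residual degree of freedom, as do the fits without a KM12 pair, so this number does not set them apart. Both fits without an LS174T pair kept the signs of the 10 differences other than PDIA6 and HYOU1, for which they were not computed. In LS174T itself fewer ER genes passed without either of its pairs, and calls were lost over all genes as well. The Dox (+) pair alone had a median log2 ratio of -0.70 over the 31 genes, and the Dox (-) pair alone -0.41. The median of all genes was 0.03 in each pair.

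PDIA5, the other gene that rose in LS174T, had 42.5 and 49.5 CPM in the xenografts, against 28.0 and 27.5 CPM in the cultures, with a log2 difference of 0.72 (SE 0.17, adjusted p = 0.0105, edgeR). SEL1L had 78.6 and 82.3 CPM in the KM12 GNAS KO and parental xenografts, against 181 and 183 CPM in the cultures, and fell by 1.18 (SE 0.17, adjusted p = 0.00279). In LS174T it gave -0.42 (SE 0.17), which did not pass, and the difference between the lines did not pass (0.76, SE 0.24, adjusted p = 0.067). The level of EIF2AK3 lay between 24.9 and 32.6 CPM in all 8 libraries, with log2 differences of -0.08 (SE 0.19) in LS174T and 0.12 (SE 0.19) in KM12.

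**Figure D3:**
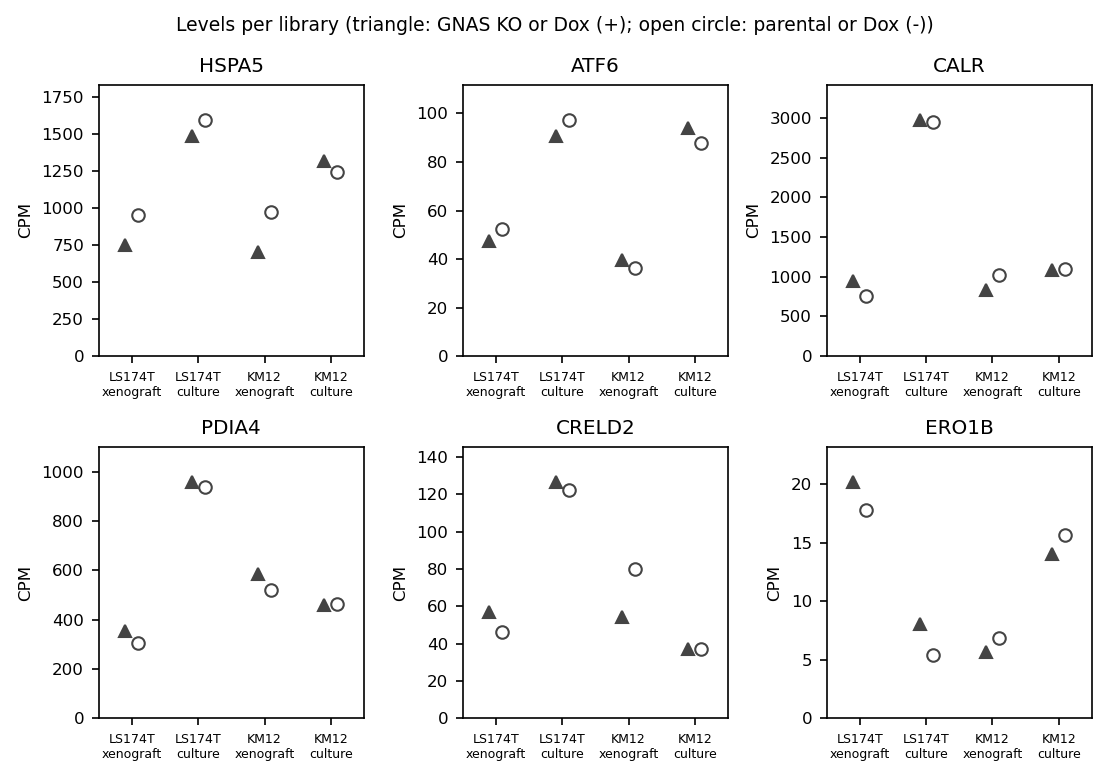
CPM of 6 ER genes in the xenografts and cultures of LS174T and KM12, 1 point a library, with triangles for GNAS KO or Dox (+) and open circles for parental or Dox (-). HSPA5 and ATF6 are lower in all 4 xenografts than in any culture, CALR and PDIA4 are highest in the LS174T cultures, and CRELD2 and ERO1B move in opposite directions in the 2 lines.

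The genes with an ERSE or ERSE-II match were set beside those with a window and no match, as a description. In LS174T, 8 of 10 tested genes with a match fell and 1 rose, with a median log2 difference of -0.88. Without a match 8 of 17 fell and 1 rose, with a median of -0.49. In KM12, 4 of 10 with a match fell and 2 rose, and 4 of 17 without one fell and 0 rose, with medians of -0.13 and -0.14. Over all genes 22.5% fell and 23.4% rose in LS174T, and 15.5% fell and 14.3% rose in KM12.

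The PERK and ATF4 arm was described by 11 further genes, which do not belong to the 32. In LS174T xenografts 8 rose and 2 fell, with a median log2 difference of 1.13, and in KM12 xenografts 0 rose and 8 fell, with a median of -1.79. Over all genes 23.4% rose and 22.5% fell in LS174T, and 14.3% rose and 15.5% fell in KM12. The difference between the lines passed for 11 of 11, all more positive in LS174T, with a median of 1.85, against 7.74% of all genes. These were ATF4, DDIT3, ATF3, TRIB3, ASNS, CHAC1, PPP1R15A, SESN2, DDIT4, CEBPB and NUPR1.

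DDIT3, the transcription factor CHOP, had 39.2 and 61.3 CPM in the LS174T Dox (+) and Dox (-) xenografts, against 11.1 and 16.1 CPM in the cultures, and rose by 1.87 (SE 0.17, adjusted p = 2.4e-04, edgeR). In KM12 it had 38.6 and 49.8 CPM in xenografts, against 41.3 and 41.7 CPM in cultures. DDIT4, an inhibitor of mTORC1 that hypoxia also induces, had 853 and 1849 CPM in the LS174T xenografts, against 52.5 and 55.3 CPM in the cultures, and rose by 4.54 (SE 0.28). NUPR1, a stress-induced chromatin protein, had 339 and 411 CPM in the LS174T xenografts, against 114 and 145 CPM in the cultures. Its KM12 xenografts had 8.04 and 15.7 CPM, against 102 and 88.0 CPM in the KM12 cultures, and it fell there by 3.07 (SE 0.29). CHAC1, which degrades glutathione, was lower in the xenografts of both lines, at -1.22 (SE 0.26) in LS174T and -2.96 (SE 0.28) in KM12, and the lines differed by 1.74 (SE 0.38, adjusted p = 0.023).

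ATF4 itself had 520 and 558 CPM in the LS174T xenografts, against 414 and 431 CPM in the cultures, which did not pass (0.35, SE 0.14). In KM12 it had 510 and 450 CPM in xenografts, against 1001 and 1069 CPM in cultures, and fell by 1.11 (SE 0.14, adjusted p = 0.0021, edgeR). With the Dox (+) or the Dox (-) pair left out of LS174T, 4 of the 11 passed as higher in LS174T and 0 as lower, and 1 of the 11 passed in the difference between the lines. The KM12 median was -1.50 without the KM12 parental pair and -1.80 without the GNAS KO pair, each with KM12 as 1 library against 1.

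**Figure D4:**
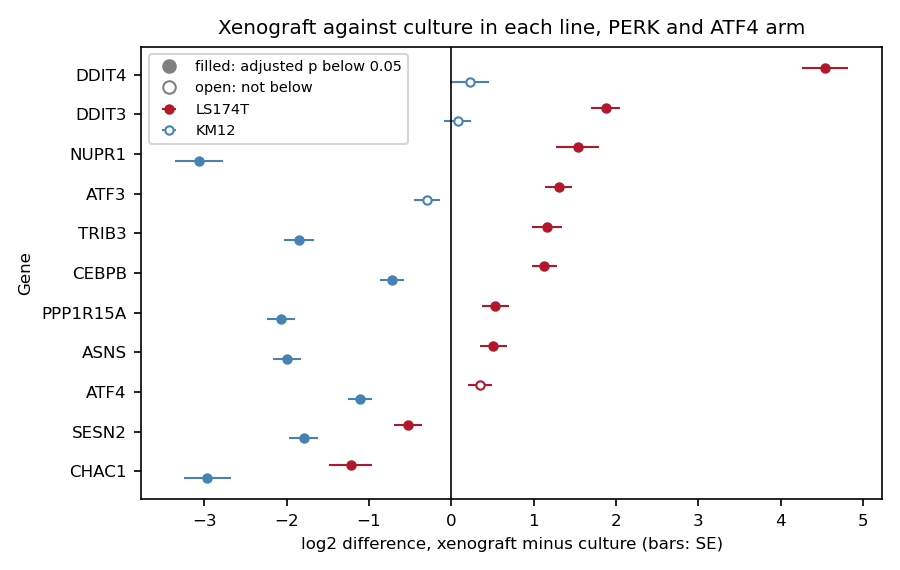
Log2 difference, xenograft minus culture, of 11 genes of the PERK and ATF4 arm in LS174T (red) and KM12 (blue), with bars of 1 SE and filled points where the adjusted p was below 0.05. The LS174T value is above the KM12 value for all 11 genes.

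Other ER genes fell in LS174T xenografts in part. Of 15 genes of N-glycan transfer and the calnexin cycle, 10 fell and 1 rose (median -0.70), among them RPN2 at -0.89 and MOGS at -0.84 as lower and UGGT2 at 0.95 as higher. Of 16 further degradation genes 7 fell and 0 rose (median -0.40), led by AUP1 at -0.80 and NPLOC4 at -0.77. Of 16 translocon and signal peptide genes 7 fell and 1 rose, with SEC11C at -1.09 and SEC61G at 1.49. Of 22 other folding factors 10 fell and 5 rose (median -0.10), with FKBP2 at -1.59 and QSOX1 at 1.39. Over all genes 22.5% fell and 23.4% rose in LS174T, and 15.5% fell and 14.3% rose in KM12. In KM12 the same lists gave 4 lower and 0 higher, 3 lower and 1 higher, 1 lower and 2 higher, and 7 lower and 3 higher, several of these counts near those shares. Without the KM12 parental pair they gave 1 lower and 0 higher, 0 and 0, 0 lower and 2 higher, and 6 lower and 5 higher. Without the LS174T Dox (-) pair 0 of the 15, 0 of the 16 degradation, 0 of the 16 translocon and 0 of the 22 folding genes passed as lower in LS174T, and without the Dox (+) pair 3, 0, 1 and 4 did.

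Of 8 ER membrane transcription factors, 5 fell and 1 rose in LS174T and 3 fell and 0 rose in KM12. With the LS174T Dox (-) pair left out, and again with the Dox (+) pair left out, 0 of the 7 then tested passed in LS174T, ATF6B included. ATF6B, the relative of ATF6, had 100 and 84.1 CPM in the LS174T Dox (+) and Dox (-) xenografts, against 148 and 146 CPM in the cultures. In KM12 GNAS KO and parental it had 39.9 and 48.2 CPM in xenografts, against 88.8 and 97.0 CPM in cultures. It fell by 0.68 (SE 0.15) in LS174T and by 1.08 (SE 0.15) in KM12. Of 11 tested goblet secretory genes 2 rose in LS174T, where 23.4% of all genes rose, and 3 in KM12, where 14.3% did, with 0 lower in either. Without the KM12 parental pair the median log2 difference of these genes in KM12 was 3.42, and without the GNAS KO pair 1.53. Each of these fits leaves KM12 as 1 library against 1. In LS174T either of these fits gave 5 higher and 3 lower, and leaving out the LS174T Dox (-) or Dox (+) pair gave 2 and 1 higher with 0 lower. FCGBP, a mucus protein, rose in both lines, by 0.88 (SE 0.20) in LS174T and by 2.11 (SE 0.20) in KM12, although in LS174T it did not pass without the Dox (+) pair or without the pair block.

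LS174T was compared with KM12 over all libraries, with environment as a covariate. In LS174T 4 of the 31 genes were higher and 3 lower, against 20.6% and 19.6% of all genes (40.2% in either direction), and the median log2 difference was -0.02, the same as for all genes. DERL3 had 0.194 and 0.244 CPM in the LS174T xenografts and 0.165 and 0.214 CPM in the LS174T cultures, on 4 to 7 counts a library. KM12 had 1.99 and 4.29 CPM in the GNAS KO and parental xenografts and 1.72 and 2.61 CPM in the cultures, on 41 to 76 counts. The lines did not overlap, as for 3 of the 31 genes in each direction (15.2% of all genes higher and 14.5% lower in LS174T), and DERL3 was lower in LS174T, with a log2 difference of -3.64 (SE 0.40, adjusted p = 2.73e-04, edgeR). HYOU1 was lower as well, at -1.42 (SE 0.18), and DERL1 at -0.65 (SE 0.13).

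DNAJB9, the co-chaperone that keeps IRE1 inactive, had 32.2 and 29.8 CPM in the LS174T xenografts and 30.1 and 25.3 CPM in the LS174T cultures. KM12 had 14.0 and 11.6 CPM in xenografts and 15.0 and 14.9 CPM in cultures. Every LS174T library was above every KM12 library, with a log2 difference of 1.08 (SE 0.15, adjusted p = 7.88e-04, edgeR). TXNDC5, an isomerase, was higher by 0.88 (SE 0.12), HERPUD1 by 0.45 (SE 0.15, adjusted p = 0.0384) and P4HB by 0.39 (SE 0.14, adjusted p = 0.0497). HERPUD1 and P4HB did not pass when GNAS state was added to the block, nor without the KM12 parental culture, the KM12 GNAS KO culture, the KM12 GNAS KO xenograft or the LS174T Dox (-) culture, each left out in turn. HERPUD1 also missed without the KM12 parental xenograft, and P4HB without the LS174T Dox (+) culture and with library totals alone. ERN1 and EDEM3 passed as lower with DESeq2 and without the filter on low counts, and HSP90B1 also without the filter.

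The environments differed in how the lines compared. In culture both LS174T libraries were above both KM12 libraries for 16 of the 31 genes and below them for 9, against 41.4% and 41.8% of all genes. In xenografts they were above for 7 and below for 14, against 31.7% and 32.9% of all genes. These counts carry no test of their own, and the test of the difference between the lines' responses is given above. DNAJB11, HSP90B1, MANF, PDIA3, PDIA4 and SDF2L1 were above KM12 in culture and below it in xenografts.

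GNAS state was checked first through GNAS itself. The knockout had 297 CPM in culture, against 1117 CPM in the parental culture, and 901 CPM in the xenograft, against 1387 CPM in the parental xenograft. LS174T Dox (+) had 1742 CPM in culture, against 690 CPM in Dox (-), and 690 CPM in the xenograft, against 584 CPM in Dox (-). In all 4 pairs the library labelled knockout or Dox (-) was lower, by the least in the LS174T xenografts. Counts per gene do not show whether the remaining message is edited.

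No ER gene passed for any GNAS comparison with edgeR's quasi-likelihood test. In the comparisons over both lines, KM12 parental and LS174T Dox (+) were taken as active GNAS, which for Dox is an assumption. The counts were 0 of 31 for knockout against parental in KM12 (1 gene at an unadjusted p below 0.05), 0 of 31 for Dox (+) against Dox (-) in LS174T (0 genes unadjusted) and 0 of 31 for active against inactive GNAS over the 4 pairs (2 genes unadjusted). DESeq2 and limma-voom gave 0 genes in each as well. Among all genes 0.0124% were called in KM12 (0.00622% in each direction) and 0 in each of the other 2 comparisons, so these tests called almost nothing anywhere. The difference of the GNAS effect between the lines gave 0 of 31 (0 unadjusted, 0.00622% of all genes called), and that between xenograft and culture 0 of 31 (2 unadjusted, 0 of all genes called). Without the KM12 culture pair, KM12 is 1 library against 1 and the spread comes from LS174T alone. That fit called genes widely, ERN2 and EDEM3 among them, for knockout against parental and for the difference of the GNAS effect between the lines. Without the LS174T or the KM12 xenograft pair, 1 pair of xenografts is left for the difference between xenograft and culture. Those fits also called genes widely, ER genes among them, so these calls are not read as results about the ER genes.

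Single pairs show how far the genes lay apart. In the KM12 cultures the GNAS KO differed from the parental cells by more than 1.5-fold for 1 gene, DERL3, at 1.72 against 2.61 CPM (ratio 0.661, 95% counting interval 0.463 to 0.942), where 5.45% of all genes were that much lower and 6.98% higher. In the LS174T cultures 0 genes were past 1.5-fold between Dox (+) and Dox (-), where 5.33% of all genes were higher and 6.68% lower by that much. The xenograft pairs were wider. Between the LS174T Dox (+) and Dox (-) xenografts HERPUD1 passed, at 128 against 193 CPM (ratio 0.664, interval 0.633 to 0.696), where 13.9% of all genes were lower and 11.1% higher by that much.

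In the KM12 xenografts 3 genes were more than 1.5-fold higher in GNAS KO and 2 lower, against 13.8% and 16.6% of all genes. ERN2, the IRE1 of mucosal epithelium, had 127 CPM in the GNAS KO xenograft, against 19.6 CPM in the parental one (ratio 6.50, interval 5.80 to 7.29). In the KM12 cultures it had 41.3 and 45.6 CPM in GNAS KO and parental cells. LS174T had 75.6 and 105 CPM of ERN2 in the Dox (+) and Dox (-) xenografts and 48.8 and 68.5 CPM in the cultures, so the KM12 GNAS KO xenograft was the highest of the 8 libraries and the KM12 parental xenograft the lowest. Against its own culture the GNAS KO xenograft had 3.07 times the level of ERN2 (interval 2.88 to 3.28), and the parental xenograft 0.429 times (interval 0.380 to 0.484). ERN1 had a ratio of 1.80 and EDEM3 of 1.72 in the same pair, and HSP90B1 and DERL3 were lower at 0.625 and 0.463. This pair includes the library with 263 CPM of fibroblast markers, against 12.7 CPM in its partner. Which cells or reads gave these marker counts, and their part in the ratios, was not tested. Goblet secretory genes were higher in the GNAS KO xenograft for 10 of 11, 9 of them past 1.5-fold, with a median log2 ratio of 1.21. In the KM12 cultures the same genes were lower in GNAS KO for 9 of 11, 8 of them past 1.5-fold, with a median of -1.21. Epithelial markers were higher in the GNAS KO xenograft for 8 of 10, 6 of them past 1.5-fold, with a median of 1.02, against -0.04 for all genes. The part of both lists in the ratio of ERN2 was not tested either. Intervals cover counting error only.

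The genes with the largest differences of 1 sign across pairs, none of which passed, were these. For knockout against parental they were DERL3 at -0.85 (SE 0.42), ERN1 at 0.51 (SE 0.22), HSP90B1 at -0.39 (SE 0.17) and CRELD2 at -0.29 (SE 0.18). For Dox (+) against Dox (-) they were ERN2 at -0.48 (SE 0.81), ERO1B at 0.38 (SE 0.24), DERL3 at -0.35 (SE 0.64) and HERPUD1 at -0.32 (SE 0.17). For active against inactive GNAS over the 4 pairs they were ERO1B at 0.30 (SE 0.15), MANF at 0.25 (SE 0.08), CRELD2 at 0.23 (SE 0.12) and SDF2L1 at 0.22 (SE 0.10). HSPA5 gave -0.02 (SE 0.13) there. The ERN2 estimates, whose pairs did not share a sign in KM12, were 1.25 (SE 0.91) for knockout against parental and -0.83 (SE 0.51) for active against inactive GNAS. The adjusted p values of all these estimates lay between 0.775 and 0.982 (edgeR).

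**Figure D5:**
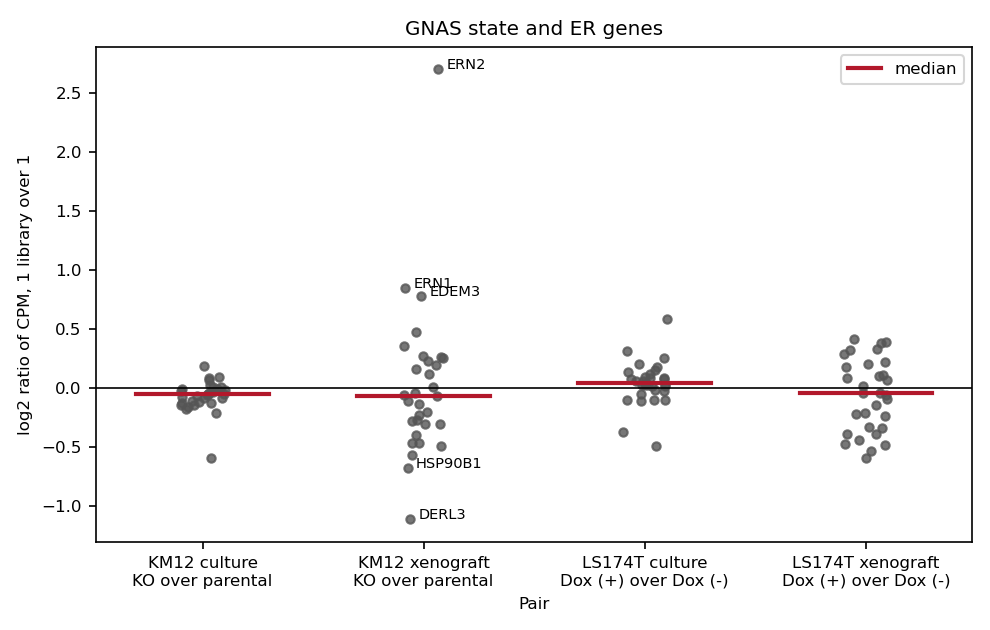
Log2 ratio of CPM between the 2 GNAS states in each of the 4 pairs, 1 point an ER gene and a red line at the median; GNAS KO is set over parental and Dox (+) over Dox (-). Medians lie between -0.07 and 0.05, and ERN2 is the highest point of the KM12 xenograft pair.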

How the data were processed

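RNA-seq of 8 libraries, 1 per group, was analysed from a table of whole-number counts per Ensembl gene that the authors deposited. Per the submitters' processing notes, STAR 2.7.2b and HTSeq 0.11.0 were used with hg38 and GRCm39; how mouse reads were removed is not given in the sources used here, and the table holds 0 mouse gene IDs. Whether counting used strand is not given either, so reads of overlapping or antisense genes cannot be told apart. Symbols came from GENCODE 29 (56753 of 60483 genes, 99.96% of counts).

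The 16070 genes that reached 1 CPM in 2 or more libraries entered the tests, made with edgeR 4.0.16 (R 4.3.3; limma 3.58.1) by its quasi-likelihood test on TMM-scaled counts, with Benjamini-Hochberg adjustment over all tested genes and a threshold of 0.05. Fits had 3 residual degrees of freedom over the 4 pairs, 2 for effects within a line and 5 between lines. The SE is the log2 difference divided by the root of F. FPKM used exon-union lengths. Single pairs were described by CPM ratios with 95% intervals from exact binomial limits. Alternatives were DESeq2 1.42.0 (size factors and its Wald test), limma-voom, library totals alone, no filter, no pair block, a block of environment and GNAS state, and each pair or library left out. Scripts were tested on simulated data.

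Values are given for genes past the threshold, at most 8 a direction by size, or where fewer than 4 passed for the largest whose pairs share a sign, and for at most 2 genes a direction of each pathway list; ERN2, ATF4, CHAC1 and EIF2AK3 were added after their values were seen. The genes and lists were chosen with earlier results of these data known. Pathway and marker lists covered the PERK and ATF4 arm, N-glycan transfer, further degradation genes, the translocon, other folding factors, ER membrane transcription factors, goblet secretory genes, epithelium, fibroblasts and plasma cells. Promoters and motif windows came from RefSeq on GRCh38.p14; PDIA3, ERN2, DERL1 and DERL3 had none.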

Additional observations from a re-analysis of the deposited data

Results flagged for a closer look

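The response to the xenograft (xenograft over culture, log2) differed between LS174T and KM12 by a test of the difference itself for 12 ER genes and for the 2 genes of the PERK and ATF4 arm with the largest difference, all at an adjusted p below 0.05 (edgeR quasi-likelihood test).

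Folding factors made up 7 of these differences, each more negative in LS174T. They were PDIA4 at -1.79, CALR at -1.57, SDF2L1 at -1.44, HSP90B1 at -1.18, DNAJB11 at -1.13, PDIA6 at -0.87 and HYOU1 at -0.81. The secreted CRELD2 and MANF gave -2.10 and -1.01, and the mannosidase EDEM3 gave -1.42. The oxidase ERO1B and the sensor ERN1 were more positive in LS174T, at 2.77 and 1.73. NUPR1 and DDIT4 were more positive there as well, at 4.60 and 4.32. The calls of the 12 ER genes did not hold without the LS174T Dox (+) pair or without the LS174T Dox (-) pair. In those fits LS174T is 1 library against 1, the spread comes from KM12 alone, and almost nothing was called over all genes.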

How the results depend on the processing

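The alternatives were run on the counts and on the gene differences picked by the naming rule, and none of those differences changed sign. That rule takes genes past the threshold or, for GNAS state, genes whose pairs share a sign, so a change of sign was unlikely from the outset. Other printed differences were not recomputed, and some differ in sign between single pairs: HSP90B1 in KM12 was 0.36 in the parental and -0.20 in the GNAS KO pair, and the ratio of ERN2 for knockout against parental was 6.50 in xenografts and 0.906 in culture. Those genes lost a call 25 times with library totals alone, 4 times without the filter, 4 without the pair block, 5 with the block of environment and GNAS state, 2 each with DESeq2 size factors and its Wald test, and 1 with limma-voom; with a pair or library left out 205 calls were lost and 6 gained. DESeq2 size factors moved 0 counts, and limma-voom moved counts over all genes only. With library totals alone, xenograft against culture gave 1 ER gene higher and 2 lower (0 and 8 with TMM), and KM12 gave 4 and 5 (2 and 8). LS174T against KM12 gave 6 lower without the filter and 5 with the DESeq2 Wald test (3), and 2 higher with environment and GNAS state as the block (4).

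Leaving out 1 pair or library gave these ranges of ER genes passed. Xenograft against culture had 0 to 4 lower, KM12 1 to 2 higher, LS174T 0 to 4 higher and 5 to 20 lower, and the difference between the lines' responses 0 to 3 higher and 0 to 10 lower. LS174T against KM12 had 2 to 4 higher. Over all genes, xenograft against culture had 7 to 1338 lower in these fits. For the response within a line, leaving out a pair of that line leaves it as 1 library against 1. A pass there, or in the difference between the responses, is not read as a result. Knockout against parental and the GNAS difference between lines gained ER genes only without the KM12 culture pair (ERN2 and EDEM3), where KM12 is 1 library against 1. The GNAS difference between xenograft and culture gained them only without the LS174T or the KM12 xenograft pair, where 1 pair of xenografts is left. These fits called genes widely. The cause was not tested beyond the smaller number of libraries.

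Over all genes, library totals alone gave 3335 higher and 990 lower for xenograft against culture (2023 and 2166 with TMM) and 3799 and 1229 in KM12 (2300 and 2486); DESeq2 gave 3182 higher for xenograft against culture. Without the filter KM12 had 3794 lower, and the difference between responses 1935 and 1493 (1244 and 954). Knockout against parental gave 241 higher and 124 lower without the filter, 46 and 19 with DESeq2, and 0 and 0 with limma-voom or no pair block (1 and 1). Dox (+) against Dox (-) gave 29 and 72 without the filter and 2 and 11 with DESeq2 (0 and 0). Active against inactive GNAS gave 70 and 211, and 8 and 49 (0 and 0). The GNAS difference between lines gave 61 and 62, and 1 and 4 (0 and 1), with 0 lower by limma-voom or no pair block, and that between environments 79 and 81, and 11 and 17 (0 and 0).

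Pairs share line and GNAS state or line and environment, since the labels give no replicate numbers. Depth limits DERL3, with 4 to 7 counts in each LS174T library.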
